A study of Mus musculus with 4 samples.

Results

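The Tfap2b/Esr1 neurons were the 102 nuclei that carried the authors' annotation 95: Tfap2b/Esr1 and passed their quality filter, out of 12539 neuronal nuclei, 39461 kept nuclei and 44303 barcodes of single-nucleus RNA sequencing of the mouse posterior hindbrain. The dissected piece held the area postrema (AP) and the nucleus of the solitary tract (NTS), which receive signals from the gut and the blood. Both groups were adults of 12 to 20 weeks, male and female by the study's account. They received clozapine N-oxide (CNO) intraperitoneally at 3 mg/kg, and tissue was taken 1 h later with no food present. In AgRP-Gq;POMC-Gi mice, Cre in AgRP neurons switched on the activating receptor hM3DGq and Dre in POMC neurons switched on the inhibitory receptor hM4DGi, so that CNO drove the former and silenced the latter. Control mice, labelled WT, lacked both recombinases and received the same CNO. Each group had 2 libraries. The study pooled 2 mice per group, and which mouse entered which library is not given in the sources used here, so p-values measure only the spread between these libraries, which may in part be technical. Both receptors sat behind stop cassettes under the ubiquitous CAG promoter, so that they follow every cell in which the AgRP or POMC driver has been active, and Pomc is known from some NTS neurons besides those of the hypothalamus.

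Tfap2b encodes AP-2beta, a transcription factor of the AP-2 family that acts in neural crest derivatives and, in the developing hindbrain and spinal cord, in inhibitory neurons. Esr1 encodes oestrogen receptor alpha, a nuclear receptor that binds oestradiol and acts as a transcription factor. Inhibitory neurons of the hindbrain release GABA, glycine or both: glutamate decarboxylases (Gad1, Gad2) make GABA, the vesicular transporter encoded by Slc32a1 loads both transmitters, and Slc6a5 encodes the neuronal glycine transporter that supplies glycine.

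The cluster contributed 20 nuclei in control 1, 26 in control 2, 30 in AgRP-Gq;POMC-Gi 1 and 26 in AgRP-Gq;POMC-Gi 2, with 227393, 324063, 323358 and 278483 UMIs (unique molecular identifiers, each standing for 1 captured RNA molecule). The median nucleus held 10712 UMIs, against 8687 in all other neurons and 2460 in oligodendrocytes. Levels are given as CPM, a gene's share of all UMIs in the cluster's nuclei of a library scaled by 1e6, with mean ± SD of the 4 libraries. Because the cluster was built from these expression values, its levels against other neurons are a description without a test, and levels are compared between cells, not between genes.

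Before the results, 3 features of the libraries need stating. AgRP-Gq;POMC-Gi 2 stood apart in sex-linked RNA: in the cluster, Xist, the RNA of the inactive X chromosome, had 83, 71, 199 and 0 UMIs in the 4 libraries in the order given above, and Y-linked genes had 47, 46, 14 and 112 UMIs. The same held for the other neurons, where Xist was at 508, 320, 541 and 16.4 CPM and nuclei with Xist but no Y-linked UMI made up 63.6, 44.9, 61.5 and 1.72%. Those with Y-linked and no Xist UMIs made up 26.4, 41.7, 27.8 and 88.8%. The 2 AgRP-Gq;POMC-Gi libraries therefore did not hold the same mixture of mice. By these RNAs AgRP-Gq;POMC-Gi 2 was almost all male, whereas the other libraries held both sexes. Sex was thus not balanced between the groups, and its part in group differences was not tested. Ttr, the choroid plexus transthyretin, was at 0, 812, 0 and 474 CPM in the cluster, and therefore in 1 library of each group. Finally, 3 nuclei, 1 in control 1 and 2 in AgRP-Gq;POMC-Gi 2, held 7 to 10 UMIs of Mog, Mobp, Mbp and Mag, markers of oligodendrocytes, which was 18.3 to 38.2 per 10000 UMIs, whereas the next nucleus had 5.85. None of these 3 nuclei held a UMI of Esr1 or Tfap2b. Pairs of libraries shared 19 to 36 barcodes among kept nuclei, but none within the cluster.

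Both genes of the cluster's name were high in all 4 libraries. Esr1 (ENSMUSG00000019768, GRCm38 chr10:4611593-5005614, plus strand) was at 356 CPM in control 1, 293 in control 2, 346 in AgRP-Gq;POMC-Gi 1 and 223 in AgRP-Gq;POMC-Gi 2. The mean of 305 ± 61.3 CPM (SD, n = 4 libraries) compared with 28.0 ± 2.61 in all other neurons, 10.9 times lower, and was the highest of the 134 neuronal clusters. The next was 144: Nox4/Kcnmb2 at 168 ± 23.6 CPM, whose highest library, at 185 CPM, lay below the lowest of the Tfap2b/Esr1 neurons. Behind it came 97: Gfral/Sctr at 135 ± 27.9 CPM and 102: Necab1/Pde1a at 130 ± 31.7 CPM, ranges that overlapped with each other and with that of 144: Nox4/Kcnmb2.

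Tfap2b (ENSMUSG00000025927, chr1:19208914-19238576, plus strand) was at 136, 225, 204 and 154 CPM in the 4 libraries. Its mean of 180 ± 41.6 CPM compared with 22.4 ± 3.97 in other neurons, an 8.04-fold ratio, and placed the cluster 6th among neuronal clusters. Clusters with more were 86: Tfap2b/Col25a1 at 408 ± 78.4 CPM, 70: Tfap2b/Cntnap5b at 352 ± 116 CPM, 126: Tfap2b/Slc39a8 at 326 ± 56.8 CPM, 85: Tfap2b/Glra3 at 321 ± 62.7 CPM and 120: Tfap2b/Trhde at 214 ± 21.8 CPM. By the ratio of mean CPM, Esr1 thus set the cluster further from the other neurons than Tfap2b did, a gene that several clusters carried at similar or higher levels. By share of nuclei with a UMI Tfap2b was further apart, at 69.6% against 9.38%, with Esr1 at 57.8% against 15.5%. This was not so with every nucleus thinned to 2000 UMIs.

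**Figure D1:**
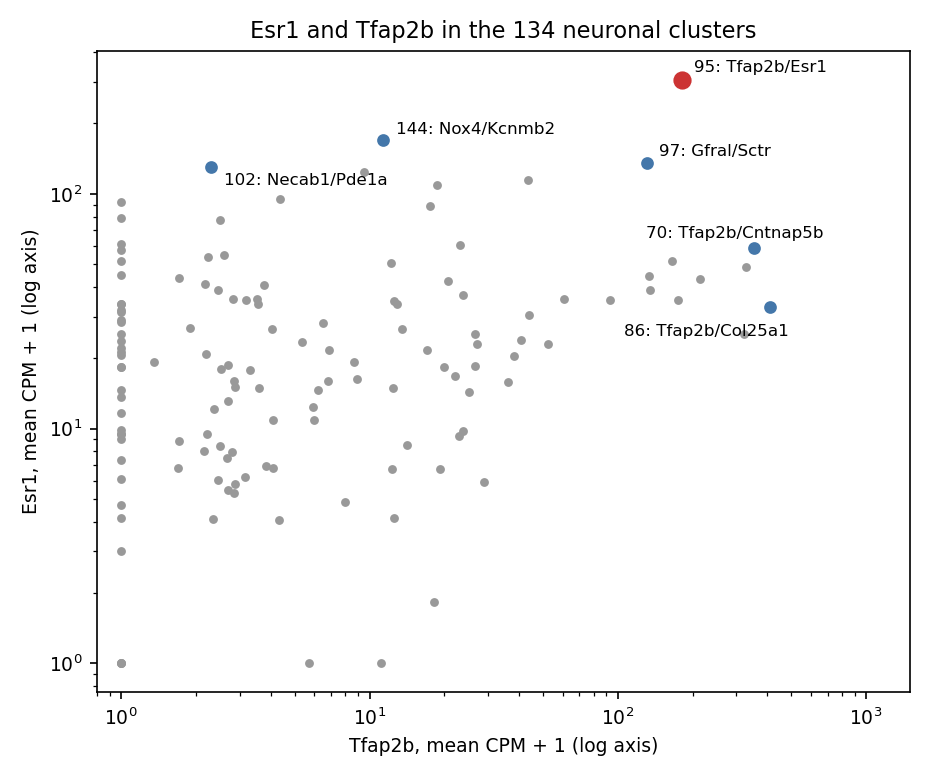
Mean CPM + 1 over the 4 libraries of Tfap2b (x axis, log scale) and Esr1 (y axis, log scale), with 1 point for each of the 134 neuronal clusters. The red point, the Tfap2b/Esr1 neurons, is the highest on the Esr1 axis at 305 CPM. Blue points mark clusters 144, 97 and 102, the next highest in Esr1, and 86 and 70, the highest in Tfap2b.

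An Esr1 UMI was found in 59 of the 102 nuclei (57.8%, exact Clopper-Pearson 95% interval 47.7 to 67.6%) and a Tfap2b UMI in 71 (69.6%, 59.7 to 78.3%). In other neurons these shares were 15.5% and 9.38%, and in the shallower oligodendrocytes, which should lack both, 0.285% and 0.178%. Neither share was particular to the cluster: 144: Nox4/Kcnmb2 had an Esr1 UMI in 56.9% of nuclei, and 70: Tfap2b/Cntnap5b a Tfap2b UMI in 81.7%. With every nucleus thinned to 2000 UMIs, leaving out 166 shallower other neurons and none of the cluster, the shares were 35.3% against 4.89% for Esr1 and 29.4% against 4.23% for Tfap2b. Intervals cover counting error only.

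Both genes were seen in the same nucleus in 48 nuclei (47.1%, 37.1 to 57.2%), the highest share among the 134 clusters, ahead of 97: Gfral/Sctr at 33.7% and 70: Tfap2b/Cntnap5b at 19.8%. Esr1 alone was seen in 11 nuclei, Tfap2b alone in 23 and neither in 20. Nuclei with neither gene were shallow, with a median of 5831 UMIs against 12054.5 where both were seen. The most Esr1 UMIs in a nucleus was 46, in AgRP-Gq;POMC-Gi 1, where the whole cluster held 112.

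Of the other AP-2 genes, Tfap2d was also high for neurons, at 16.2 ± 8.05 CPM against 1.82 in other neurons, rank 3 of 134. Tfap2a and Tfap2e were at 5.86 ± 2.51 and 5.01 ± 4.60 CPM, against 6.36 and 3.13, and Tfap2c had no UMI in the cluster, which allows up to 2.94% of nuclei with a UMI. Among the partners of oestrogen signalling, no UMI was found of Esr2 (oestrogen receptor beta), Gper1 (the membrane oestrogen receptor) or Cyp19a1 (aromatase, which makes oestradiol). Pgr, the progesterone receptor and in many tissues a target of oestrogen receptor alpha, was at 72.7 ± 17.1 CPM, with UMIs in 51.0% of nuclei against 35.1% of other neurons, whose level was 56.8 CPM. Greb1, another such target, had 2 UMIs. The mineralocorticoid receptor Nr3c2 and glucocorticoid receptor Nr3c1 were at 292 ± 30.3 and 26.1 ± 9.11 CPM against 326 and 41.5. Esr1 was the only member of the list of 17 oestrogen receptors and coregulators that lay above the other neurons in every library, and 8 lay below. Of the 27523 genes with a UMI in neurons, 2.80% lay above and 24.7% below by the same measure, and a gene with no UMI in the cluster counts as below where every library of other neurons has one. Of the 12132 genes seen in at least 5% of the cluster's nuclei the shares were 5.99% and 7.90%.

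By their transmitter genes the Tfap2b/Esr1 neurons were inhibitory, with RNA for both the GABA and the glycine route. Gad2 was at 220, 287, 226 and 316 CPM in the 4 libraries, a mean of 262 ± 47.0 against 93.8 in other neurons, with UMIs in 82.4% of nuclei against 38.2%. Gad1 was at 96.4 ± 21.1 CPM against 50.2, and Slc32a1 at 43.5 ± 4.43 CPM against 27.0. Slc6a5 was at 158, 123, 130 and 104 CPM, a mean of 129 ± 22.4 against 82.8, with UMIs in 61.8% of nuclei against 32.5% of other neurons and 1.39% of oligodendrocytes. Every library of the cluster lay above the other neurons for Gad2, Slc32a1 and Slc6a5.

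Genes that define other transmitters had few or no UMIs. Slc17a6, the vesicular glutamate transporter of most hindbrain excitatory neurons, had 1 UMI in the cluster against 76.7 CPM in other neurons, and Slc17a7 and Slc17a8 had none. Th and Dbh (catecholamine synthesis), Pnmt (adrenaline synthesis) and Slc6a4 (serotonin transporter) were also at 0 UMIs. Slc18a2, the vesicular monoamine transporter, was at 16.1 ± 6.51 CPM against 23.1, with UMIs in 15.7% of nuclei against 16.7% of other neurons and 2.93% of oligodendrocytes, close to the neuronal average. Slc5a7, the choline transporter, was at 30.5 ± 27.7 CPM, rank 10, of which AgRP-Gq;POMC-Gi 2 had 71.8 CPM and the other libraries 13.2 to 18.6. Chat, the enzyme that makes acetylcholine, had 4 UMIs.

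**Figure D2:**
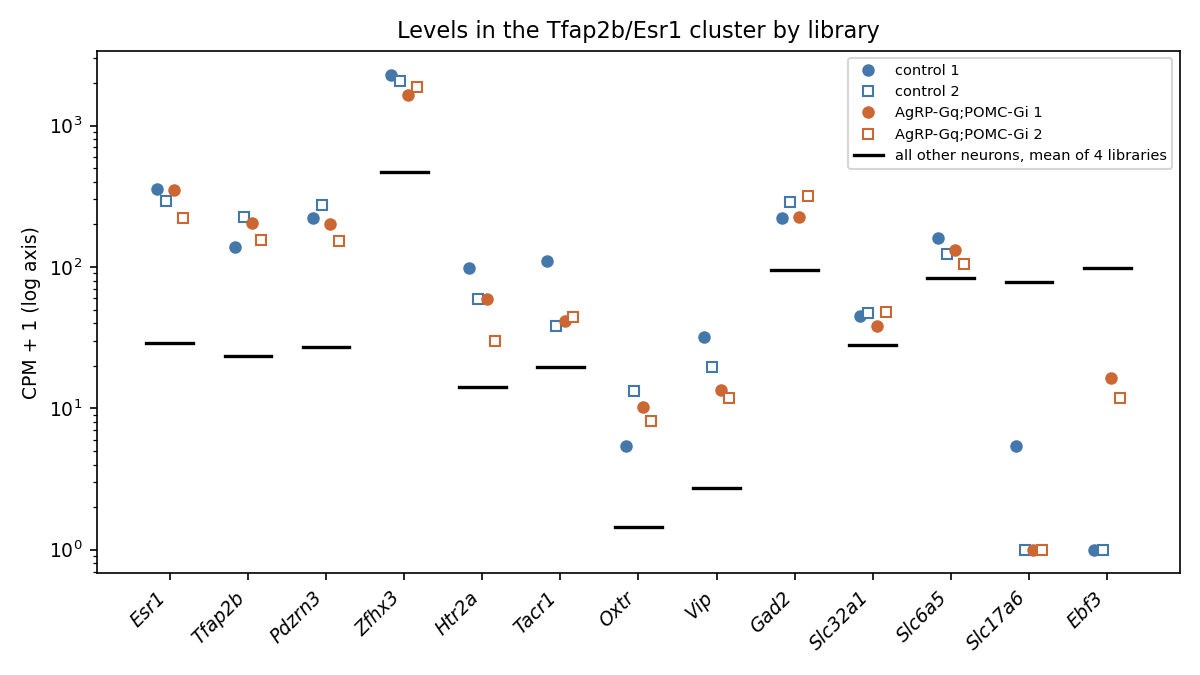
CPM + 1 (y axis, log scale) of 13 genes in the Tfap2b/Esr1 neurons of each of the 4 libraries (points: circles replicate 1, open squares replicate 2, blue control, orange AgRP-Gq;POMC-Gi), with the mean of all other neurons as a black line. All points lie above the line for Esr1, Tfap2b and Gad2 and below it for Slc17a6 and Ebf3.

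The 25 leading genes, those with the largest ratio of mean CPM to other neurons among genes seen in at least 25% of the cluster's nuclei, were 3.03 to 10.9 times higher, 14 of them more than 4 times. In 24 of the 25 every library lay above the other neurons, and in 14 the cluster ranked 1 to 5 among the 134 neuronal clusters. The exception was Pde11a, a phosphodiesterase that breaks down cyclic nucleotides, at 30.8 CPM in control 1 and 136 to 154 in the other libraries. As the 25 genes were picked for this ratio, both counts largely follow from the choice. Of the 12132 genes seen in at least 5% of the cluster's nuclei, 5.99% lay above in every library. Beside Esr1 and Tfap2b the leading genes included the transcription factor Zfhx3, a homeobox and zinc finger protein, at 1970 ± 281 CPM against 471. Zfhx3 varied from 1636 to 2296 CPM between libraries and was seen in 97.1% of nuclei against 55.4% of other neurons.

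Behind Esr1 in the ratio came Pdzrn3, a ubiquitin ligase that acts at synapses and in Wnt signalling, at 220, 275, 201 and 151 CPM, a mean of 212 ± 51.2 against 26.2. Of the other clusters only number 38 had more Pdzrn3, at 369 CPM. Cyp4f17, a cytochrome P450, was the other gene beside Esr1 for which the cluster ranked first, at 50.4 ± 4.87 CPM against 12.0, although cluster 120 was close at 49.4. Receptors among the leading genes included Htr2a (serotonin 2A receptor) at 60.7 ± 27.9 CPM against 13.2, rank 3, and Tacr1 (the substance P receptor) at 57.6 ± 35.0 against 18.5, rank 8. Adgrg2, an adhesion G protein-coupled receptor, was at 35.5 ± 9.85 CPM against 8.46, rank 4, and Ror1, a receptor tyrosine kinase-like protein, at 61.6 ± 38.2 against 19.2, rank 14. Secreted proteins included Nxph4, a ligand of neurexins, at 48.0 ± 19.3 CPM against 9.10, Pappa, a protease of IGF-binding proteins, at 91.2 ± 56.1 against 25.0, and Serpine2, a protease inhibitor, at 85.0 ± 7.03 against 26.3.

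Of the 25 leading genes, 18 were protein coding and 7 were not. Among these non-coding genes, Gm43948 lies antisense over Pdzrn3, Lncbate1 over Zfhx3, Gm28153 over Crispld1 and 2700069I18Rik over Zfhx4. Pdzrn3 and Zfhx3 also overlap other annotated genes on their own strand. How far such overlaps enter these values was not tested, so the values are uncertain. Oligodendrocytes also carried Ston2 at 103 CPM against 110 ± 35.4 in the cluster, Plxdc2 at 1237 against 729 ± 215, and Gm28376 at 561 against 93.1 ± 17.2.

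Among hindbrain lineage factors, several known from inhibitory neurons were above the other neurons in mean level. Pax2, a factor of GABAergic and glycinergic progenitors, was at 108 ± 29.9 CPM against 59.8, and its relative Pax8 at 59.95 ± 30.1 against 24.2. Lhx1, a LIM-homeobox factor of inhibitory interneurons, was at 29.3 ± 12.5 CPM against 14.6, and Onecut1 at 27.1 ± 10.7 against 4.42, rank 6. Meis2, a homeobox cofactor, was at 844 ± 125 CPM against 348, rank 10. In all, 8 of 56 lineage factors (14.3%) lay above and 35 (62.5%) below the other neurons in every library, where the shares over all genes were 2.80% and 24.7%, and 20 had no UMI.

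The 10 lowest genes of those seen in at least 25% of other neurons included, besides Slc17a6, Ebf3 at 6.56 ± 7.81 CPM against 97.7, Ebf1 at 57.9 ± 66.4 against 533 and Nfib at 14.7 ± 17.1 against 106, all transcription factors of neural development. Ebf1 was uneven, at 39.6, 33.9, 155 and 3.59 CPM. The same unevenness held for Arpp21, a cyclic AMP-regulated phosphoprotein, at 35.2, 46.3, 95.9 and 3.59 CPM against a mean of 491 in other neurons. AgRP-Gq;POMC-Gi 1 was the highest and AgRP-Gq;POMC-Gi 2 the lowest for both, so the 2 libraries of this group bracketed the controls. In AgRP-Gq;POMC-Gi 1, 4 nuclei held all 50 Ebf1 UMIs and 1 nucleus all 13 Nfib UMIs.

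Among neuropeptides, Vip (vasoactive intestinal peptide) was at 30.8, 18.5, 12.4 and 10.8 CPM against 1.73 in other neurons, rank 2, but was seen in only 12 nuclei (11.8%, 6.23 to 19.6%). Cbln4, a secreted synapse organiser, was at 21.9 ± 21.7 CPM against 6.03, rank 6, and Penk, the precursor of enkephalins, at 47.8 ± 17.2 against 42.8, within the spread. Agrp was at 128, 83.3, 80.4 and 75.4 CPM in the cluster against a mean of 88.0 in other neurons, with UMIs in 54.9% of nuclei against 50.8% of other neurons and 4.66% of oligodendrocytes. This level was thus not particular to the cluster. The annotated Agrp gene (chr8:105566698-105637393, minus strand) overlaps Gm45855 and Gm5914 on its own strand and Ripor1 and Ctcf on the other, so the value is uncertain. Of 47 neuropeptide genes 21 had no UMI, and 7 were seen in at least 10% of nuclei.

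Receptors through which feeding signals act were mostly sparse. Oxtr, the oxytocin receptor, was at 4.40, 12.3, 9.28 and 7.18 CPM against 0.435 in other neurons, the second highest cluster, though this rested on 10 UMIs in 8 nuclei. Ret, the signalling subunit for GDNF-family ligands, was even across libraries at 28.5 ± 1.91 CPM against 10.6, rank 8. Mc4r and Npy1r, receptors for melanocortins, including the AgRP antagonist, and for neuropeptide Y, had 6 and 2 UMIs, whereas Mc3r, Npy2r and Ghsr had none. Lepr, the leptin receptor, was at 18.4 ± 8.86 CPM against 17.7, and Htr2c, the serotonin 2C receptor, at 998, 457, 946 and 1627 CPM against 733. Agtr1a, the angiotensin receptor, was at 13.6 ± 5.32 CPM against 2.15, rank 6. Of the 33 receptors of this feeding list, 2 (6.06%) lay above and 13 (39.4%) below the other neurons in every library, against 2.80% and 24.7% of all genes, and 8 had no UMI.

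Among genes of excitability and adhesion, 8 of 47 channel genes (17.0%) were higher and 18 (38.3%) lower than other neurons in every library, and 9 of 51 adhesion and guidance genes (17.6%) were higher and 19 (37.3%) lower. Over all genes the shares were 2.80% and 24.7%, and over genes seen in at least 5% of the cluster's nuclei 5.99% and 7.90%. Kcnt2, a sodium-activated potassium channel, was at 298 ± 39.8 CPM against 129, rank 10, and Cacna1b, the N-type calcium channel of synaptic terminals, at 344 ± 39.7 against 260, rank 6. Nrxn3, a presynaptic adhesion molecule, was at 9230 ± 1862 CPM against 4300, and Dcc, a netrin receptor, at 2674 ± 895 against 1289. Among the lower ones were Kcnmb2, an accessory subunit of large-conductance potassium channels, at 48.1 ± 18.3 CPM against 173, and Cdh13, a cadherin, at 72.3 ± 46.8 against 304. Gabrg3, a GABA-A receptor subunit, was at 1503 ± 391 CPM against 793.

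The neuronal clusters most like the Tfap2b/Esr1 neurons over 10819 genes, by Pearson's correlation of log2(CPM + 1) across genes, which are not independent replicates, were 67: Foxp2/Il1rapl2 (r = 0.937), 30: Zfp804b/Npas1 (0.933) and 35: Dmbx1/Cntnap5b (0.933). These had little Tfap2b, 1.23 to 1.59 CPM, and 37.9 to 53.8 CPM of Esr1. Clusters 67 and 35 shared Gad2 and Slc6a5 with the Tfap2b/Esr1 neurons, at 189 and 172 CPM and at 167 and 174 CPM, but cluster 30 had 26.4 CPM of Gad2 and 135 of Slc17a6.

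Within the cluster, the nuclei were not uniform. The 99 nuclei without oligodendrocyte RNA were divided into 3 subgroups by k-means on 4 principal components of 1000 variable genes, with Esr1, Tfap2b and sex-linked genes left out. The number of subgroups was chosen after the values were seen, the subgroups are named by 2 of their leading genes, and they carry no test. Sorcs1/Kcnip4 nuclei numbered 41, Pbx3/Erbb4 nuclei 37 and Nwd2/Npas3 nuclei 21, with median UMIs of 10889, 9330 and 14477. The division was the same for 97 of 99 nuclei with 500 genes or with 3 components and for 99 of 99 with 6 components, but for only 74 of 99 with 2000 genes.

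The leading genes of each subgroup were picked for their ratio to the next subgroup, from the expression values that divided the nuclei. Their differences therefore describe the division and do not test it. In Sorcs1/Kcnip4 nuclei, Kcnip4, a subunit of A-type potassium channels, was at 7323 CPM against 891 and 641 in the Pbx3/Erbb4 and Nwd2/Npas3 nuclei, Sorcs1, a sorting receptor, at 1176 against 122 and 45.8, and Sema3e, a guidance ligand, at 407 against 25.4 and 0, the last in 21 nuclei, which allows up to 14.3% of nuclei with a UMI. In Pbx3/Erbb4 nuclei, Pbx3, a homeobox cofactor, was at 393 CPM against 8.25 in Sorcs1/Kcnip4 and 26.2 in Nwd2/Npas3 nuclei, and Erbb4, the neuregulin receptor, at 2463 against 462 and 681. In Nwd2/Npas3 nuclei, Npas3, a bHLH-PAS factor, was at 2150 CPM against 363 in Sorcs1/Kcnip4 and 314 in Pbx3/Erbb4 nuclei, and Nwd2 at 311 against 24.8 and 31.1. All of these are levels of libraries summed.

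**Figure D3:**
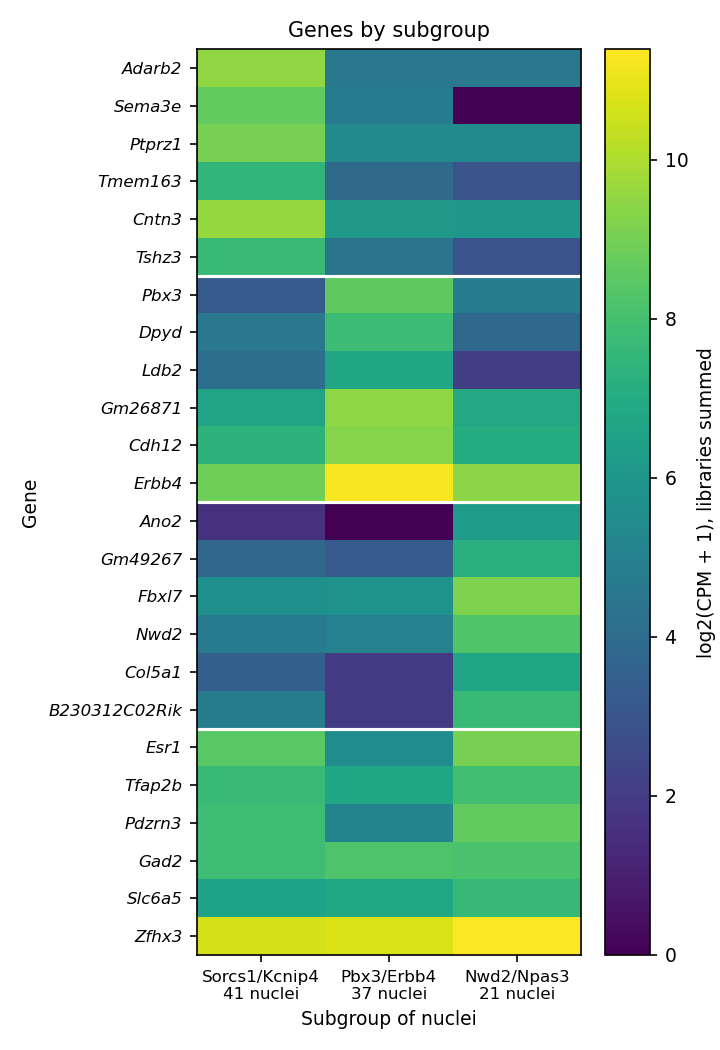
log2(CPM + 1) of each gene (rows) in the 3 subgroups of the Tfap2b/Esr1 neurons (columns, libraries summed). The first 3 blocks of 6 rows are the leading genes of each subgroup and the last block holds 6 genes that define the whole cluster or its transmitters. Gad2 and Zfhx3 are high in all 3 columns, whereas Esr1 and Pdzrn3 are lower in Pbx3/Erbb4 nuclei.

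All 3 subgroups were inhibitory, and Esr1 itself differed between them. Gad2 was at 231, 305 and 275 CPM and Slc6a5 at 97.0, 110 and 200 CPM in the Sorcs1/Kcnip4, Pbx3/Erbb4 and Nwd2/Npas3 nuclei, and Slc17a6 had 1 UMI over all of them. Esr1 was at 359, 45.2 and 524 CPM in the same order, with UMIs in 78.0%, 18.9% and 95.2% of nuclei, the second of these close to the 15.5% of other neurons. The Nwd2/Npas3 level leaned on 1 nucleus of AgRP-Gq;POMC-Gi 1, which held 46 of the subgroup's 81 Esr1 UMIs in that library. Tfap2b varied less, at 204, 107 and 249 CPM, with UMIs in 70.7%, 62.2% and 90.5% of nuclei. By library, Pbx3/Erbb4 nuclei had no Esr1 UMI in the 12 control nuclei, which allows up to 25% of nuclei with a UMI, 2 UMIs in 8 nuclei of AgRP-Gq;POMC-Gi 1 and 14 in 17 nuclei of AgRP-Gq;POMC-Gi 2. In every library these nuclei had less Esr1 than both other subgroups.

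Other genes of the cluster followed the subgroups as well. Htr2a was at 8.25, 39.6 and 164 CPM and Tacr1 at 22.7, 45.2 and 115 CPM in the Sorcs1/Kcnip4, Pbx3/Erbb4 and Nwd2/Npas3 nuclei, so both receptors were highest in the last. Vip had 14 of its 20 UMIs in Nwd2/Npas3 nuclei and none in the 37 Pbx3/Erbb4 nuclei, which allows up to 8.11%. Pax8 was at 99.05, 5.65 and 68.7 CPM and Pde11a at 256, 19.8 and 39.3 CPM in the same order, whereas Htr2c was at 440, 1801 and 929 CPM and Penk at 39.2, 93.3 and 6.54 CPM. Each subgroup was most like cluster 67 outside the cluster, with r of 0.861 to 0.914, and the subgroups correlated with each other at 0.853 to 0.870 across genes. The subgroups held 41, 37 and 21 nuclei and cluster 67 held 132. As the sums were not matched for depth, these r values cannot be ranked against each other.

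The mixture of subgroups differed between libraries of the same group. Pbx3/Erbb4 nuclei were 36.8% of the nuclei in control 1, 19.2% in control 2, 26.7% in AgRP-Gq;POMC-Gi 1 and 70.8% in AgRP-Gq;POMC-Gi 2. Nwd2/Npas3 nuclei were 31.6, 23.1, 26.7 and 4.17%. Only AgRP-Gq;POMC-Gi 2, the library with no Xist UMI in the cluster, lay outside the control range in both. Nuclei with Y-linked and no Xist UMIs were Pbx3/Erbb4 nuclei in 26 of 44, and those with Xist and no Y-linked UMIs in 10 of 47, but the libraries went opposite ways: 1 of 7 against 6 of 11 in control 1, 4 of 9 against 0 of 13 in control 2, 4 of 4 against 4 of 23 in AgRP-Gq;POMC-Gi 1, and 17 of 24 with none to compare in AgRP-Gq;POMC-Gi 2. The part of sex in this mixture was not tested.

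**Figure D4:**
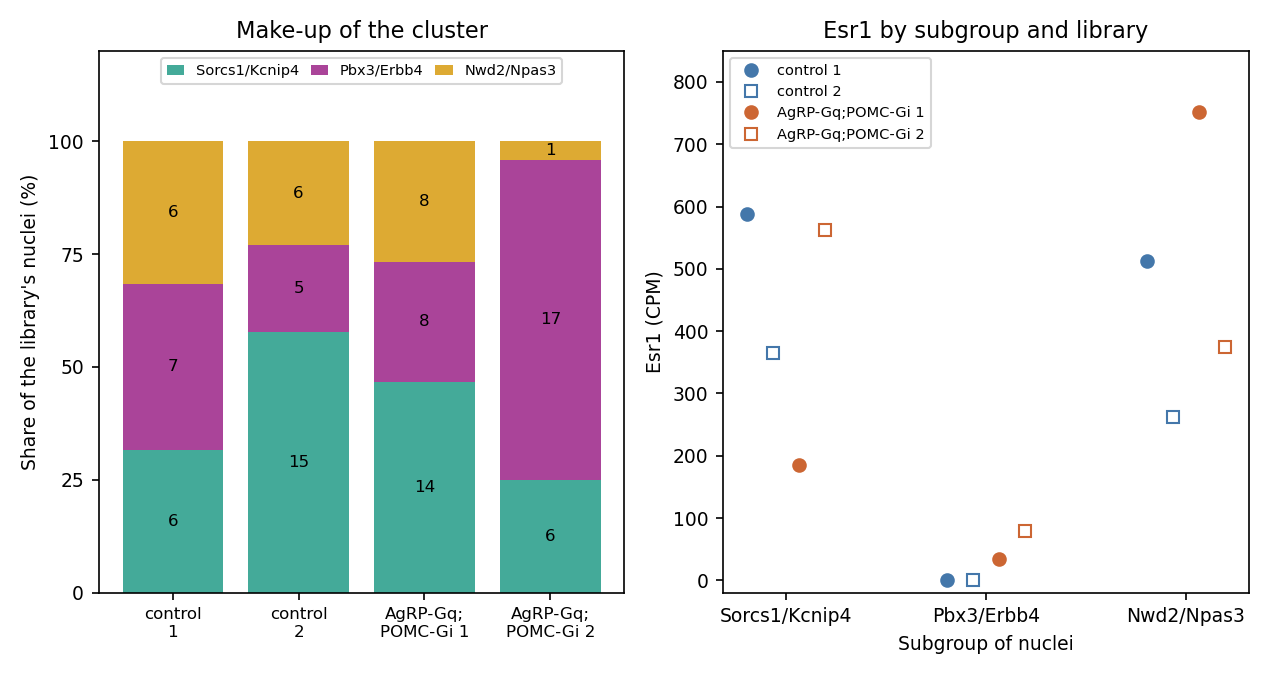
Left, share of the cluster's nuclei (y axis, %) in each of the 3 subgroups for the 4 libraries, with the number of nuclei printed in each bar. Right, Esr1 in CPM (y axis) for each subgroup and library (blue control, orange AgRP-Gq;POMC-Gi, circles replicate 1, open squares replicate 2). AgRP-Gq;POMC-Gi 2 has 17 Pbx3/Erbb4 nuclei and 1 Nwd2/Npas3 nucleus, and Esr1 is lowest in Pbx3/Erbb4 nuclei in each library.

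The study's main comparison asked which hindbrain neurons responded when AgRP neurons were activated and POMC neurons inhibited together. The number of Tfap2b/Esr1 neurons gave no detectable difference. They were 0.810% of neurons in control 1 (exact Clopper-Pearson 95% interval 0.495 to 1.25%), 0.950% in control 2 (0.622 to 1.39%), 0.812% in AgRP-Gq;POMC-Gi 1 (0.548 to 1.16%) and 0.715% in AgRP-Gq;POMC-Gi 2 (0.467 to 1.05%). The group means were 0.880% ± 0.0994 and 0.763% ± 0.0685 (SD, n = 2 libraries each), and the ranges overlapped. By edgeR's quasi-likelihood test over 134 neuronal clusters the log2 difference was -0.21 (SE 0.45, adjusted p = 0.870), and 0 of the 134 clusters were called (0%). Without control 2 the fit called 2 clusters and without AgRP-Gq;POMC-Gi 2 it called 4, the Tfap2b/Esr1 cluster not among them (adjusted p = 0.989 by edgeR in both). Taken of all nuclei in place of neurons, the share of the cluster had a log2 difference of 0.29, the opposite direction (SE 0.48, adjusted p = 0.871 by edgeR). The exact two-sided permutation test over libraries gave p = 0.667, where 0.33 is the smallest it can give.

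The immediate early genes (IEGs), transcribed within minutes of neuronal activation and read in the study as a sign of it, were sparse in the cluster. Of the 10 IEGs, Fos, Fosl2 and Nr4a3 had 1 UMI each over all 102 nuclei, Gem none and Btg1 4. Homer1, a synaptic scaffold gene and the most counted of them, had 12, 15, 23 and 17 UMIs, which was 52.8, 46.3, 71.1 and 61.0 CPM, so both AgRP-Gq;POMC-Gi libraries were above both controls. Jun went the other way with 3, 6, 1 and 1 UMIs, and 1700016P03Rik, a host transcript of microRNAs, had 1, 0, 5 and 5. The groups' CPM ranges did not overlap for these 3 of the 5 IEGs tested, as for 32.2% of all 12132 genes. Jun and 1700016P03Rik rested on 11 UMIs each. Summed over the 10, the cluster had 23, 24, 35 and 33 UMIs, or 101, 74.1, 108 and 118 CPM, against a mean of 166 in other neurons. None of the 5 IEGs with enough nuclei to be tested was called, so an IEG response was not detectable at this depth.

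Across all genes, edgeR's quasi-likelihood test on sums per library called 0 of 12132 genes at an adjusted p under 0.05 (0%), with 494 at an unadjusted p under 0.05. DESeq2 also called 0, with 26 at an unadjusted p under 0.05. The CPM ranges of the groups did not overlap in 3901 genes (32.2%), of which 1893 (15.6%) were higher and 2008 (16.6%) lower in AgRP-Gq;POMC-Gi mice. No list of genes had a called member in either direction, among them the receptors for feeding signals, the neuropeptides, the transmitter genes and the steroid receptors. Esr1 itself had a log2 difference of -0.10 (SE 0.29, adjusted p = 0.989 by edgeR) and Tfap2b of 0.028 (SE 0.31, adjusted p = 0.989, with -0.032 where TMM scaling was left out), where the median over all genes was 0.0071.

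The 10 genes with the lowest unadjusted p all had an adjusted p of 0.989 and are given as values. Tafa1, a secreted chemokine-like protein of neurons, had 42 and 58 UMIs in the controls and 26 and 10 in AgRP-Gq;POMC-Gi mice, a log2 difference of -1.54 (SE 0.35). Without AgRP-Gq;POMC-Gi 1 the difference was -2.38 (adjusted p = 0.00075 by edgeR) and without AgRP-Gq;POMC-Gi 2 it was -1.02 (adjusted p = 0.686). Gabra5, a GABA-A receptor subunit of extrasynaptic receptors, had 15 and 30 against 7 and 4 UMIs. Adgrl1, a latrophilin, had 26 and 30 against 10 and 10, and Thsd7b 133 and 188 against 85 and 78. For each of these 4 genes both controls were above both AgRP-Gq;POMC-Gi libraries in CPM. As genes were picked by p, such separation follows from the choice, and it held in either direction for 32.2% of all 12132 genes. Tox3 had 14 and 20 against 3 and 5 UMIs, and Ptger3, a prostaglandin E2 receptor, 4 and 9 against 0 and 0. Against a floor of 3 counts over both AgRP-Gq;POMC-Gi libraries Ptger3 was 4.73-fold lower, a value that leaves out the spread between nuclei and libraries. Ptger3 was seen in only 8 nuclei of the cluster. Higher in AgRP-Gq;POMC-Gi mice were Lrrc4, a synaptic adhesion protein, with 29 and 34 against 71 and 71 UMIs, Stac with 3 and 2 against 14 and 14, Gm29536 with 5 and 10 against 18 and 36, and Malrd1 with 0 and 4 against 9 and 23. Malrd1 rested on few nuclei, with UMIs in 0 and 4 control nuclei and in 3 and 1 nuclei of AgRP-Gq;POMC-Gi mice, so that 1 nucleus held all 23 UMIs of AgRP-Gq;POMC-Gi 2.

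Pbx3/Erbb4 nuclei made up 70.8% of the cluster in AgRP-Gq;POMC-Gi 2, 26.7% in AgRP-Gq;POMC-Gi 1 and 36.8% and 19.2% in the controls. The part of this mixture in the values of these 10 genes was not tested. The call of 0 genes rested on which libraries entered: without AgRP-Gq;POMC-Gi 1 edgeR called 13 genes, among them Xist, Tsix, Adarb2, Sema3e and Tafa1 lower and Htr2c, Gm29536 and Malrd1 higher, and without AgRP-Gq;POMC-Gi 2 it called 11, among them Ebf1, Dach1 and Xist higher and Ttr lower.

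**Figure D5:**
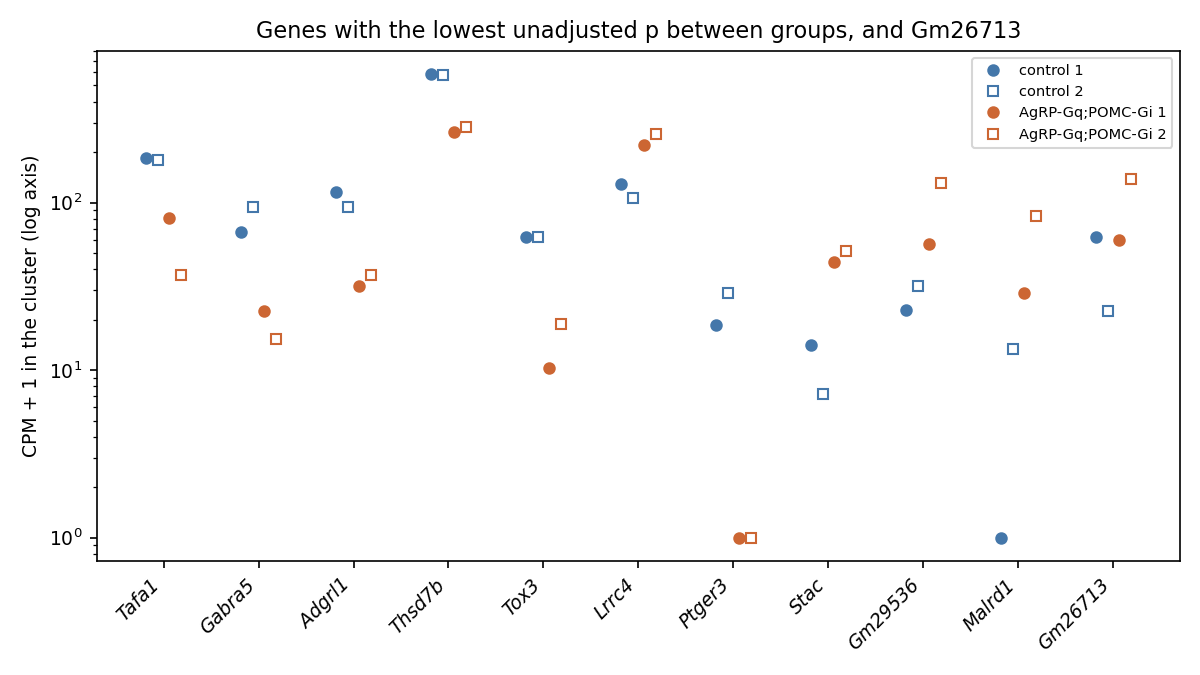
CPM + 1 in the Tfap2b/Esr1 neurons (y axis, log scale) of the 10 genes with the lowest unadjusted p between groups and of Gm26713, in each library (blue control, orange AgRP-Gq;POMC-Gi, circles replicate 1, open squares replicate 2). The groups' points do not overlap for the first 10 genes, which were picked by p and none of which passed the adjusted threshold, and they overlap for Gm26713. Over all genes tested the groups did not overlap in 32.2%.

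A second fit asked whether a group difference in the Tfap2b/Esr1 neurons was unlike that in all other neurons, with the library as a term. It called 1 of 12132 genes (0.00824%), Gm26713 (ENSMUSG00000097655), a long non-coding RNA gene at chr9:80955436-81203591 on the plus strand, which Gm8151 overlaps on the other strand. In the cluster it had 14, 7, 19 and 38 UMIs, or 61.6, 21.6, 58.8 and 136 CPM, whereas in other neurons it was at 44.5, 33.9, 13.8 and 20.2 CPM. The difference of the group differences was 2.47 on the log2 scale (SE 0.41, adjusted p = 0.0105 by edgeR). Within the cluster alone the groups overlapped and the log2 difference was 1.34 (SE 0.45, adjusted p = 0.989), while both controls were above both AgRP-Gq;POMC-Gi libraries in other neurons. The gene was seen in 22 nuclei. Its highest library, AgRP-Gq;POMC-Gi 2, was also the one with 70.8% Pbx3/Erbb4 nuclei, and the part of this mixture was not tested. The call was lost with DESeq2 (2.45, adjusted p = 0.363), without control 2 (2.03, adjusted p = 0.252 by edgeR) and without AgRP-Gq;POMC-Gi 2 (2.12, adjusted p = 0.138), when the fit called 0, 3 and 5 genes, and the fit called 5 genes without control 1 and 10 without AgRP-Gq;POMC-Gi 1.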

How the data were processed

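Nuclei of a dissected hindbrain piece from 4 libraries, 2 per group, were sorted and sequenced with 10x Genomics chemistry. Per the labels and the study's methods, the authors counted UMIs per gene with Cell Ranger 7.0.0 on GRCm38, analysed them with Seurat 4.3.0, filtered nuclei (minimum of 800 UMIs and 500 genes, mitochondrial RNA no more than 10%), removed doublets and annotated clusters. The deposited matrices hold raw UMI counts, which were used with the deposited cell types and clusters. No further doublet caller was run. The deposited nucleus table also holds a score and a category of immediate early genes, results of the authors' comparison, which were not used.

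Counts were summed per library over the nuclei of the cluster and tested with edgeR 4.0.16 (quasi-likelihood, TMM factors, Benjamini-Hochberg adjustment, two-sided, threshold 0.05) in R 4.3.3, for genes detected in 5% or more of its nuclei. The same model was fitted to 8 sums, cluster and other neurons per library, and to numbers of nuclei per neuronal cluster. DESeq2 1.42.0, other filters, no TMM factors, a replicate block and leaving out each library were alternatives, and leaving out 3 nuclei with oligodendrocyte RNA was added after seeing the data. The main edgeR fits, not the alternatives, were run on simulated counts. For the fits of genes the changed genes were drawn from the better counted ones, so this does not cover sparse genes such as most IEGs. Named genes were Esr1 and Tfap2b, the 25 leading and 10 lowest genes by log2((CPM + 1)/(CPM + 1)) against other neurons, list members seen in at least 10% of nuclei (all members of the transmitter, AP-2, steroid receptor and feeding receptor lists), the 10 IEGs, called genes and the 10 lowest p. The leading genes of subgroups and genes given by subgroup were chosen after their values were seen, as were Ttr, Xist and Y-linked genes. Members and lists were chosen with earlier results of these data known. Some genes are not reported here.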

Additional observations from a re-analysis of the deposited data

Results flagged for a closer look

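The group difference of Gm26713 in the Tfap2b/Esr1 neurons differed from that in all other neurons by 2.47 on the log2 scale (SE 0.41, adjusted p = 0.0105, edgeR's quasi-likelihood interaction test over 12132 genes). In the cluster, 1 of the 2 AgRP-Gq;POMC-Gi libraries was above both controls, and in other neurons both were below both controls. The library above both controls, AgRP-Gq;POMC-Gi 2, was also the one with 70.8% Pbx3/Erbb4 nuclei, and the part of this mixture was not tested. The call was lost with DESeq2 (2.45, adjusted p = 0.363), without control 2 (2.03, adjusted p = 0.252 by edgeR) and without AgRP-Gq;POMC-Gi 2 (2.12, adjusted p = 0.138).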

How the results depend on the processing

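The number of genes called between groups, 0 in the reported fit, was also 0 without TMM factors, with DESeq2, with the filterByExpr filter and without the 3 nuclei with oligodendrocyte RNA (an alternative chosen after seeing the data, with 495 genes below an unadjusted p of 0.05). The count was 1 without a filter (Adarb2) and 0 to 13 when each library was left out. The count of called genes unlike other neurons, 1 in the reported fit, was 0 with DESeq2, 7 without a filter and 3 to 10 when each library was left out. Replicate numbers are shared between groups. Same-numbered libraries did not deviate together over 12132 genes (r = -0.0311), but Ttr was found in the cluster only in replicate 2 of each group. Whether same-numbered libraries share more than a number is not given in the sources used here and was not tested. With the replicate number as a block, 2 genes were called between groups (Tafa1, and Malrd1, of which 8 nuclei held a UMI) and 2 unlike other neurons. A library left alone in its group was assumed to vary like the other group.

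The share of the cluster gave a log2 difference of 0.29 when taken of all nuclei in place of neurons, the opposite direction, with the cause not tested, and kept its direction under the other alternatives computed. Over 17 genes and 164 alternatives, 157 kept the direction and 7 in 4 genes reversed. Leaving out each library in turn gave log2 differences of -0.074 to 0.87 for Nr4a1 (lowest without AgRP-Gq;POMC-Gi 1), -4.44 to 1.04 for Junb (1.04 without control 1 and 0.56 without AgRP-Gq;POMC-Gi 1), -0.59 to 0.25 for Esr1 (0.25 without AgRP-Gq;POMC-Gi 2) and -0.32 to 0.47 for Tfap2b (-0.29 without control 1 and -0.32 without AgRP-Gq;POMC-Gi 1), and without TMM factors Tfap2b was at -0.032. With 20 to 30 nuclei per library, genes with few UMIs, most IEGs among them, limit what can be detected.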
